A study of Mus musculus with 4 samples.

Results

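The matrix metalloproteinases (Mmp) and their tissue inhibitors (Timp) were examined in the lungs of healthy and cancer-bearing mice that rested or ran. The 10 genes were taken by symbol, 7 enzymes (Mmp2, Mmp3, Mmp9, Mmp10, Mmp12, Mmp13 and Mmp14) and 3 inhibitors (Timp1, Timp2 and Timp3), from 23282 rows of the expression table. Each symbol matched 1 row, and all 10 passed the filter, a normalized count of 4 or more on average over the libraries, as did 15164 rows in all. The samples were lungs of CDF1 mice, all male per the study, with 10 mice in each of 4 groups. The labels give postnatal day 28 as the age, which is the age at which the study bought the mice, so the lungs were taken later. Healthy resting mice, E(-)T(-), had neither exercise nor tumor, and healthy running mice, E(+)T(-), ran on a treadmill at high intensity. Tumor resting mice, E(-)T(+), carried tumor without exercise, and tumor running mice, E(+)T(+), had both. CT26, a mouse colorectal carcinoma line, was injected into the tail vein of the tumor mice and not of the healthy mice. One lung library was sequenced for each group, and the sources do not state outright whether its RNA came from a single animal or a pool. For muscle the study took 1 representative mouse per group, and it calls its lung work similar. No spread between replicates could therefore be measured, and no difference given here has a test.

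Matrix metalloproteinases are zinc-dependent enzymes that cut collagens, laminins, elastin and other proteins of the extracellular matrix. They are made as inactive proenzymes, either secreted or, like Mmp14, anchored in the cell membrane, and the Timp proteins block them by filling the active site. In lung they take part in matrix turnover, in the passage of leukocytes and in the spread of tumor cells. The study itself imaged its tumors in live mice with a fluorescent probe that these enzymes switch on.

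Of the 10 genes, 4 lie in a single run of Mmp genes. On chromosome 9 of GRCm38, the build that the submitters call mm10, Mmp13, Mmp12, Mmp3 and Mmp10 stood in this order among 10 Mmp genes within 427.1 kb (9:7272514-7699585, GENCODE M21), with no other protein-coding gene between them. The other enzymes were on other chromosomes, Mmp2 at 8:92827291-92853420, Mmp9 at 2:164940780-164955850 and Mmp14 at 14:54431612-54445364, all on the plus strand. Timp1 (X:20870166-20874735, plus strand) lay wholly within the synapsin gene Syn1 on the opposite strand and shared 0 exonic bases with it. Timp3 (10:86300372-86349506, plus strand) lay within Syn3 on the opposite strand and shared 1733 of its 8144 exonic bases with it. The use of strand in counting is not given in the sources used here. Syn1 had 23 to 33 reads per library and Syn3 had 7 to 37, against 26 to 930 for Timp1 and 9488 to 23851 for Timp3. Timp2 (11:118301069-118355740, minus strand) contains Cep295nl with 0 shared exonic bases, and Mmp12 shared 157 exonic bases with Mmp1b, which had 0 reads in every library.

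The sequences just before the starts of 3 genes of the run are shown because they hold the same short motif. Promoter sequences from RefSeq (GRCm38.p6) were matched for 8 of the 10 genes, with 9 promoters among them since Mmp12 has 2 listed starts. Mmp2 and Mmp9 were not matched. The letters TGANTCA, the element that AP-1 (Fos and Jun) factors bind, read the same on both strands. They were found in the 250 bases before 4 of the 9 starts (Mmp3, Mmp10, Mmp13 and the second Mmp12 start), and in 6.75% of all 32851 promoters. Capitals mark them in the 100 bases that end at the base before each start, at chr9:7445722-7445821 (Mmp3), chr9:7502242-7502341 (Mmp10) and chr9:7272414-7272513 (Mmp13), all on the plus strand.
Mmp3: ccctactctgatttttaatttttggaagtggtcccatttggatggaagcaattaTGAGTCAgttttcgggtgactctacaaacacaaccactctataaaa
Mmp10: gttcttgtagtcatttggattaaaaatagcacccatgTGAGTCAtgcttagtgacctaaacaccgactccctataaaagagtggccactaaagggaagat
Mmp13: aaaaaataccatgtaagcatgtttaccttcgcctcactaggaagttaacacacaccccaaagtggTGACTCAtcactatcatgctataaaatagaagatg
The motif began 46, 63 and 35 bases before the start in Mmp3, Mmp10 and Mmp13. TATAAA, searched on both strands, was found before these 3 starts and before none of the other 6, and in 12.4% of all promoters.

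Timp1 and Mmp14 are shown because their levels differed most in the tumor comparison below. Neither held TGANTCA in these 250 bases. AGGAAG, the element of PEA3 factors of the ETS family, was marked on both strands at chrX:20869916-20870165 (Timp1, plus strand) and chr14:54431348-54431597 (Mmp14, plus strand).
Timp1: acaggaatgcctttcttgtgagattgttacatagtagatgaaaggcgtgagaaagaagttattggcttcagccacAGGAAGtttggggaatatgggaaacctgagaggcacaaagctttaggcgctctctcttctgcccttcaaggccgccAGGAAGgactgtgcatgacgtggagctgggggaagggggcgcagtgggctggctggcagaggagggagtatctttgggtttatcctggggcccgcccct
Mmp14: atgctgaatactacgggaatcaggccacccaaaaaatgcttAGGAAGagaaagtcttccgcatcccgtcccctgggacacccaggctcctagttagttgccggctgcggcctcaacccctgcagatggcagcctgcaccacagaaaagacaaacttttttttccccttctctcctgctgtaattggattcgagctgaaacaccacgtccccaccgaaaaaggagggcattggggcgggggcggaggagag
It began 175 and 99 bases before the start of Timp1 and 209 bases before that of Mmp14. AGGAAG was present in 6 of the 9 promoters and in 29.5% of all promoters. A match of letters describes the sequence and is not a measured binding site.

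Libraries held 9354577 to 13368071 reads on genes, and hemoglobin genes took between 1.43% and 31.4% of them. Values are the deposited log2(normalized count + 1), and a log2 difference is taken on that scale. Reads were recovered from these values, and each difference carries a 95% exact interval of the log2 read ratio, which covers counting error alone. A difference of 2-fold or more, 1 on the log2 scale, is called past the limit. The alveolar epithelial markers that define lung were present in every library, with 0 of 11 without reads, but their summed normalized count was 34063 in tumor resting lung against 188770 to 283104 in the other libraries. Healthy running lung shared low signal with tumor resting lung. All 9 genes that reached a normalized count of 500 in tumor resting lung without a read in healthy resting lung were detected there, at 0.642% to 2.18% of their tumor resting lung level (median 1.47%). Results that use healthy running lung were also computed with 1.47% of the tumor resting lung value subtracted from it.

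**Figure D1:**
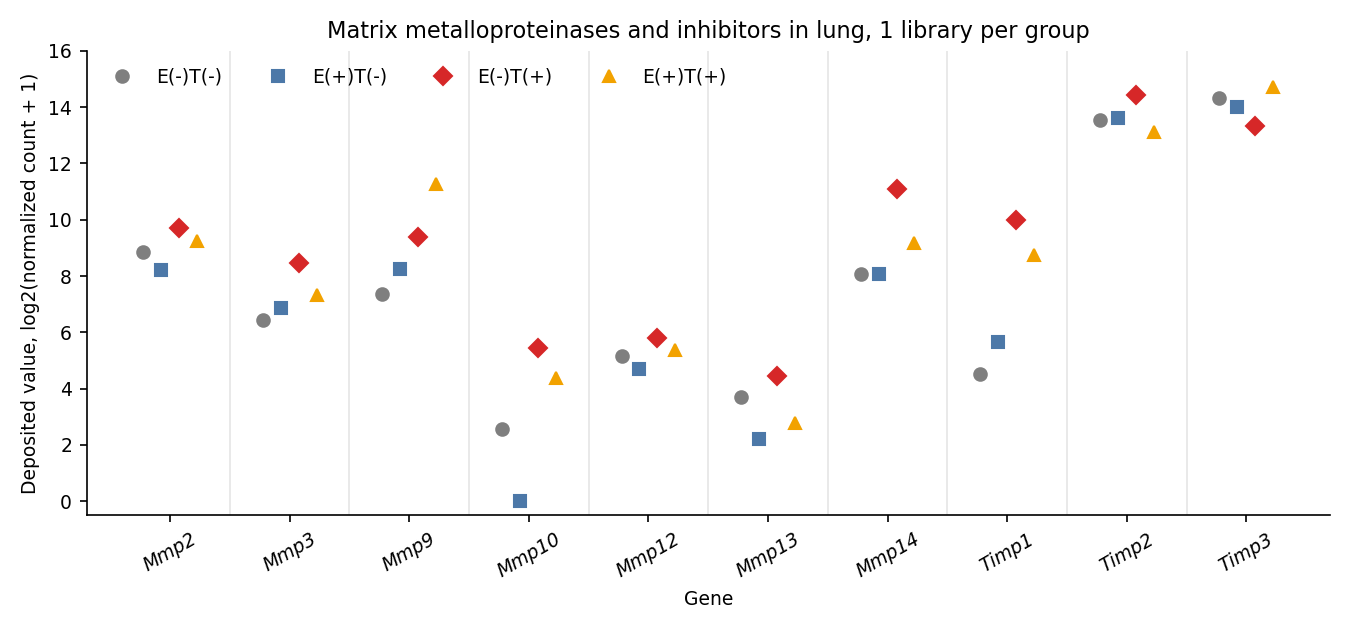
Deposited log2(normalized count + 1) of the 10 genes, with 1 point per library and group. E(-)T(+), the red diamond, is the highest of the 4 libraries for 8 genes, and E(+)T(+) is the highest for Mmp9 and Timp3.

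The tumor comparison in resting mice asked how whole lung that held tumor differed from healthy lung without exercise. Timp1, a secreted inhibitor that binds the Mmp9 proenzyme among others, stood 44.4-fold higher in tumor resting lung than in healthy resting lung. Mmp14, which cuts collagen at the cell surface and activates the Mmp2 proenzyme, was 8.08-fold higher, and Mmp10, Mmp3 and Mmp9 were 7.27-fold, 4.03-fold and 4.02-fold higher. In this comparison 5 of 10 genes were past the limit, all of them higher, where 46.2% of filtered genes were past it in either direction and 20.6% were higher. The median log2 difference of the 10 genes was 1.45, against -0.03 over all filtered genes.

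Timp1 had 26, 54, 930 and 366 reads in healthy resting, healthy running, tumor resting and tumor running lung, at log2 values of 4.52, 5.66, 9.99 and 8.74. Both tumor libraries thus stood far above both tumor-free ones. The tumor effect without exercise was 5.47 (exact interval 4.97 to 6.15), and 0.798% of filtered genes were higher by more.

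Mmp14 had 316, 291, 1987 and 495 reads in healthy resting, healthy running, tumor resting and tumor running lung, at log2 values of 8.07, 8.07, 11.09 and 9.18. The tumor-free libraries were level with each other, and tumor resting lung stood above the other 3. The tumor effect without exercise was 3.02 (2.85 to 3.20).

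Mmp3 and Mmp10, the stromelysins, cut a broad range of matrix proteins and other proenzymes. Mmp3 had 101, 125, 318 and 136 reads in the same order of libraries, at log2 values of 6.44, 6.86, 8.45 and 7.32, and its tumor effect without exercise was 2.01 (1.69 to 2.36). Mmp10 was scarce, with 6, 0, 39 and 17 reads and log2 values of 2.58, 0.00, 5.45 and 4.38, and its tumor effect without exercise was 2.86 (1.82 to 4.60). Tumor resting lung was highest for both genes.

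The gelatinases Mmp2 and Mmp9 cut denatured collagen and the type IV collagen of basement membranes. Mmp9, which neutrophils store in their granules, had 193, 330, 604 and 2129 reads and log2 values of 7.37, 8.25, 9.37 and 11.28. Of the 7 enzymes it alone was highest in tumor running lung, and its tumor effect without exercise was 2.01 (1.78 to 2.25). Mmp2, made largely by fibroblasts, had 540, 326, 770 and 516 reads at log2 values of 8.85, 8.23, 9.72 and 9.24. Its range over the libraries was 2.81-fold, and its tumor effect without exercise was 0.88 (0.72 to 1.04), inside the limit.

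Mmp12, the macrophage metalloelastase, and Mmp13, the main collagenase of fibrillar collagen in mice, were low in every library. Mmp12 had 41, 27, 50 and 35 reads (log2 values 5.16, 4.69, 5.80 and 5.39) and a tumor effect without exercise of 0.64 (0.03 to 1.29). Mmp13 had 14, 4, 19 and 5 reads (3.69, 2.21, 4.44 and 2.79), and the interval of its tumor effect, -0.27 to 1.92, included 0. A tumor effect on Mmp13 without exercise was not detectable at this depth.

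Timp2 and Timp3 were the most abundant of the 10 genes by normalized count. With a library that reads the 3' end of each transcript, counts do not scale with transcript length. Timp2, which inhibits Mmp2 and also joins its proenzyme to Mmp14, had 13967, 13525, 20102 and 7672 reads, at log2 values of 13.54, 13.60, 14.43 and 13.13. Timp3, which is held in the matrix and also blocks enzymes of the Adam family, had 23851, 18071, 9488 and 22924 reads, at log2 values of 14.31, 14.02, 13.34 and 14.71. The libraries ran in opposite orders for these inhibitors at the extremes, with tumor resting lung highest for Timp2 and lowest for Timp3, and tumor running lung lowest for Timp2 and highest for Timp3. Under library totals, however, Timp3 in tumor running lung was at -0.10 against healthy resting lung, which then stood highest. Without exercise the tumor effect was 0.89 (0.86 to 0.92) for Timp2 and -0.96 (-1.0 to -0.93) for Timp3. Both were inside the limit, but Timp2 passed it when libraries were scaled by their totals and Timp3, at -1.06, when scaled by totals without hemoglobin genes.

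Markers of several cell types differed between the same libraries, and their part in these results was not tested. In tumor resting lung against healthy resting lung, all 9 endothelial markers and all 11 alveolar epithelial markers were lower past the limit, with medians of -3.54 and -2.59, and all 12 cell division genes were higher, with a median of 4.68. Of 12 macrophage markers 8 were higher and 0 lower (median 2.51), among them the complement gene C1qb (3.81). Of 13 fibroblast markers, 4 were higher, among them the collagen chains Col1a2 (2.78) and Col3a1 (2.33), and 7 were lower, among them Tcf21 (-4.77), a fibroblast transcription factor. Of the 11 neutrophil markers 8 were higher and 0 lower (median 1.57). The summed normalized count in healthy resting and tumor resting lung was 40136.5 and 3347.6 for endothelial, 570.6 and 13021.3 for cell division, 8571.1 and 32687.7 for macrophage and 47171.8 and 38762.9 for fibroblast markers. In bulk lung, fewer cells of a type, less RNA per cell and a smaller share beside RNA of tumor cells cannot be told apart. Reads of tumor cells and of lung cells were not separated, for the Mmp and Timp genes as well.

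**Figure D2:**
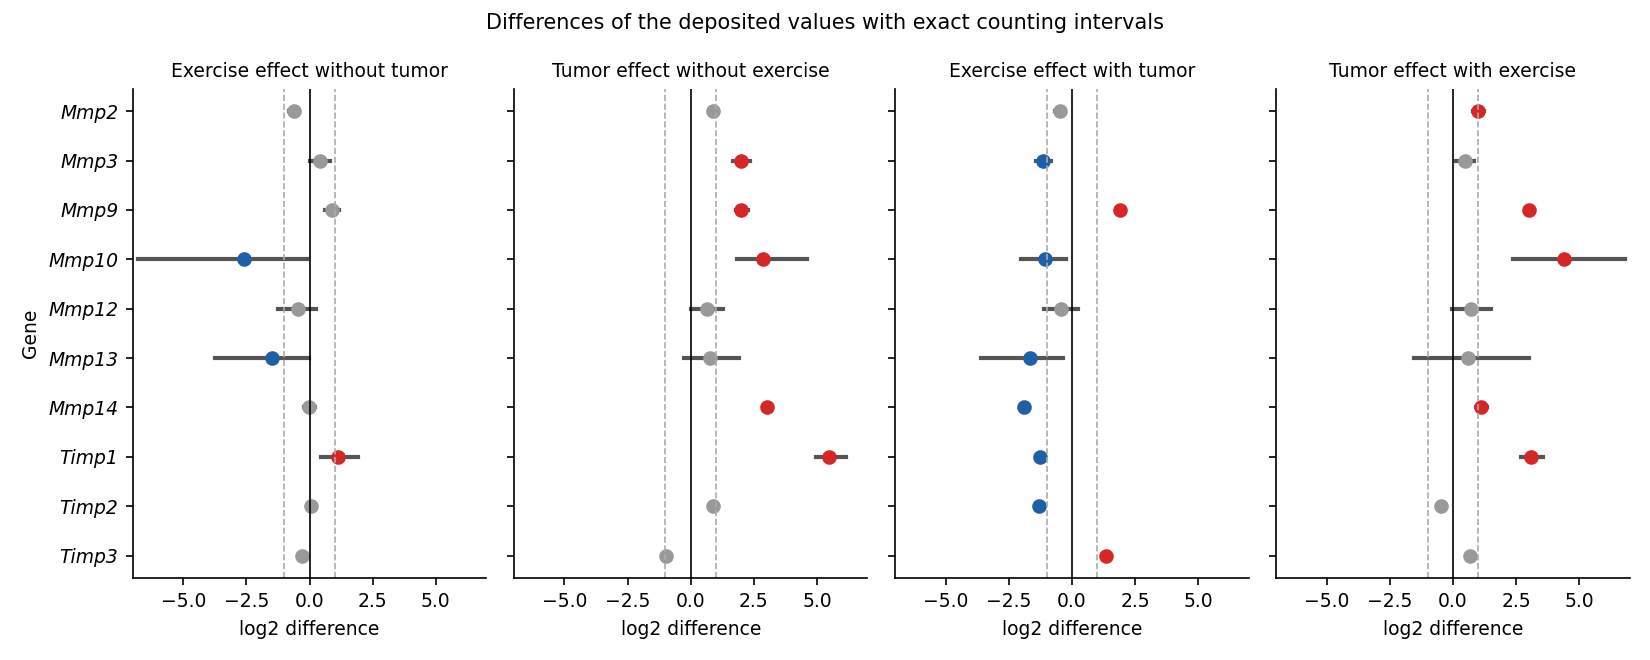
Log2 differences of the deposited values (points) with 95% exact counting intervals of the log2 read ratio (lines) for the 4 main comparisons. Red and blue points are past 2-fold, higher and lower, dashed lines mark 2-fold, and lines that reach the panel edge have no bound because Mmp10 had 0 reads in E(+)T(-). Of the 10 genes 5, 8 and 5 were past 2-fold in the tumor effect without exercise, the exercise effect with tumor and the tumor effect with exercise.

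The exercise comparison in cancer-bearing mice asked what running altered in lungs that held tumor. Here 8 of 10 genes were past the limit, 6 lower and 2 higher in tumor running lung than in tumor resting lung. Mmp14 was 3.76-fold lower, Timp2 2.46-fold, Timp1 2.38-fold, Mmp3 2.18-fold and Mmp10 2.09-fold lower, with Mmp13 lower on 19 against 5 reads. Mmp10 came inside the limit, at -0.97, with a pseudocount of 4. Mmp9 was 3.76-fold and Timp3 2.58-fold higher. Among filtered genes 42% were past the limit in this comparison, 24.3% higher and 17.7% lower. The median difference of the 10 genes was -1.09, against 0.01 over all filtered genes.

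On the log2 scale the exercise effect with tumor was -1.91 for Mmp14 (exact interval -2.06 to -1.77), -1.30 for Timp2 (-1.33 to -1.26) and -1.25 for Timp1 (-1.43 to -1.08). It was -1.13 for Mmp3 (-1.43 to -0.84), -1.06 for Mmp10 (-2.02 to -0.25) and -1.65 for Mmp13 (-3.61 to -0.36). Thus 4 of the 7 enzymes and 2 of the 3 inhibitors were lower past the limit, while Mmp9, at 1.91 (1.78 to 2.04), and Timp3, at 1.37 (1.33 to 1.40), were higher. Mmp2 and Mmp12 were inside the limit at -0.48 (-0.65 to -0.32) and -0.41 (-1.09 to 0.23). This comparison is taken over the same tumor resting lung library that is highest for 8 of the genes, and it shares that library with the tumor effect without exercise.

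Scaling between libraries bears on this comparison. With library totals alone, filtered genes had a median of -0.59 and Timp3 came inside the limit at 0.76, while Mmp2 and Mmp12 passed it as lower. Directions of the 8 genes past the limit held under each scaling.

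Neutrophil genes were read beside Mmp9. All 11 neutrophil markers that matched a row had reads in every library, and their summed normalized count was 4247, 12530.4, 12233 and 212170.3 in healthy resting, healthy running, tumor resting and tumor running lung. In tumor running lung against tumor resting lung, 10 of the 11 were higher past the limit and 1, the granule protein gene Ltf, was lower (-1.4), with a median of 3.80. S100a8 (4.53), a calcium-binding protein of neutrophils, and Retnlg (4.48) led them. Set against the summed level of the 10 neutrophil markers without Mmp8, a sum that does not include Mmp9, the Mmp9 level came to 3.91%, 2.46%, 5.62% and 1.22% of it in healthy resting, healthy running, tumor resting and tumor running lung. The ratio was lowest in tumor running lung, where S100a8 and S100a9 gave 90334 and 88598 of the summed 204008 normalized counts. S100a9 is named after its value was seen. The part of the neutrophil genes in the Mmp9 level was not tested.

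The same libraries differed in the other markers as well. Endothelial (median 2.96) and alveolar epithelial (2.48) markers were higher in tumor running lung than in tumor resting lung, 9 of 9 and 11 of 11 past the limit. Cell division genes were lower for 11 of 12 (median -1.98), and 5 of 12 macrophage markers were lower and 1 higher. Of the fibroblast markers 5 were higher and 3 lower, the latter with Col1a2 (-2.39) among them. Of 10 alveolar macrophage markers, 7 were lower and 1 was higher in tumor resting lung than in healthy resting lung (median -2.90). In tumor running lung against tumor resting lung, 7 were higher and 1 was lower (median 2.31). Their part in the differences of the Mmp and Timp genes was not tested.

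In exercised mice the tumor comparison gave smaller differences for Timp1 and Mmp14. In tumor running lung against healthy running lung, 5 of 10 genes were past the limit and all 5 were higher, where 27.8% of filtered genes were past it in either direction and 14.9% were higher. Mmp10 had 0 and 17 reads and was at least 7.21-fold higher against a floor of 3 reads in healthy running lung, while the exact interval reaches down to 2.39 on the log2 scale. Timp1 was 8.49-fold higher (log2 3.08, exact interval 2.69 to 3.55), Mmp9 8.19-fold (3.03, 2.87 to 3.21) and Mmp14 2.16-fold (1.11, 0.90 to 1.33). Mmp2 sat at the limit, at 1.01 (0.81 to 1.21). Under library totals alone Mmp14 and Mmp2 were inside the limit, at 0.70 and 0.60, and Mmp2 also under totals without hemoglobin genes, at 0.92.

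Mmp3 was 0.47 (0.11 to 0.83) higher, Timp3 0.69 (0.66 to 0.72) higher and Timp2 0.47 lower (-0.51 to -0.43), all inside the limit. Under library totals they stood at 0.06, 0.28 and -0.88. The intervals of Mmp12 (-0.04 to 1.5) and Mmp13 (-1.55 to 3.0) included 0. The median of the 10 genes was 0.86, against 0.00 over all filtered genes. With 1.47% of the tumor resting lung level taken out of healthy running lung, the tumor effect with exercise was 3.59 for Timp1 and 1.30 for Mmp14, and the same 5 genes were past the limit. In this comparison all 11 neutrophil markers (median 3.71), 10 of 12 cell division genes (median 2.0) and 9 of 12 macrophage markers (median 1.66) were higher past the limit, as were all 6 hemoglobin rows (median 1.55). Lower past the limit were 4 of 9 endothelial (median -0.59) and 2 of 11 alveolar epithelial markers (median -0.50). So were 3 of 13 fibroblast markers (median -0.63, with 1 higher) and 1 of 10 alveolar macrophage markers (median -0.39, with 2 higher). Their part in the Mmp and Timp values was not tested.

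**Figure D3:**
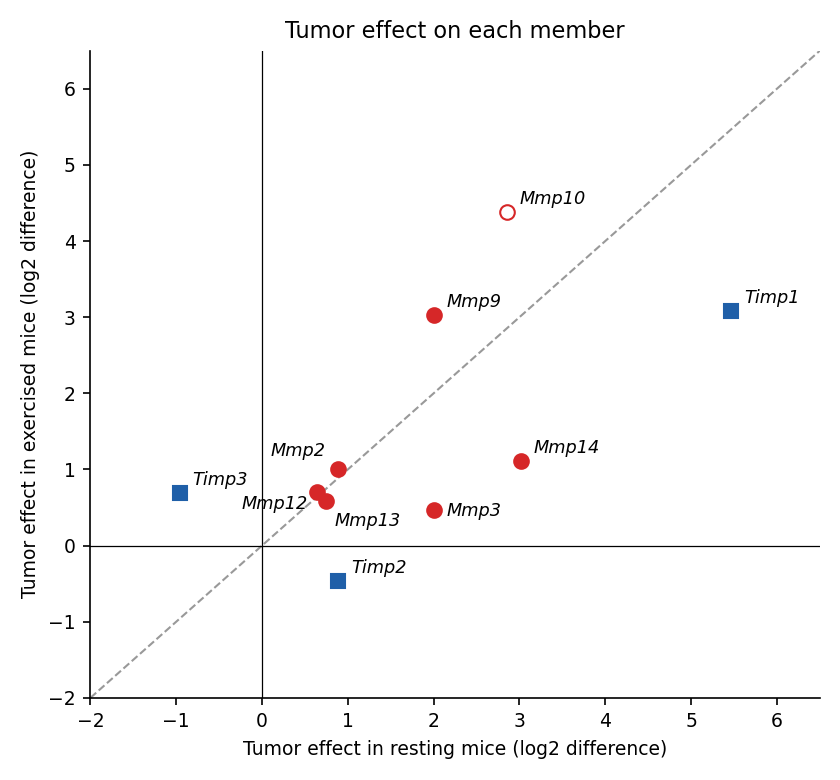
Tumor effect of each gene in resting mice (x, E(-)T(+) over E(-)T(-)) against that in exercised mice (y, E(+)T(+) over E(+)T(-)), both as log2 differences. Circles are enzymes, squares inhibitors, the open circle marks Mmp10 with 0 reads in E(+)T(-), and the dashed line marks equal effects. Timp1, Mmp14, Mmp3 and Timp2 lie below the line and Mmp9 and Timp3 above it.

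The tumor effects of resting and exercised mice were set against each other gene by gene, over the 9 genes with reads in all 4 libraries. The difference, exercised minus resting, was past 1 on the log2 scale for 6 of the 9. It was -2.39 for Timp1 (normal interval from counting error -3.12 to -1.72), -1.90 for Mmp14 (-2.18 to -1.63), -1.54 for Mmp3 (-2.03 to -1.08) and -1.36 for Timp2 (-1.41 to -1.31). It was positive for Timp3, at 1.65 (1.61 to 1.70), and for Mmp9, at 1.03 (0.74 to 1.31). Mmp9 came inside 1 under library totals, at 0.50, and under median-of-ratios size factors, at 0.98, which leaves 5 of the 9. Among filtered genes 26% were at 1 or more and 18.9% at -1 or less. Mmp2, Mmp12 and Mmp13 had differences of 0.13, 0.06 and -0.17, and their intervals included 0. Under library totals these came to -0.39, -0.45 and -0.66, so that Mmp2 and Mmp12 turned sign and Mmp2 left its interval of -0.12 to 0.39. With 1 library per group, these differences have no test against the spread between animals.

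Running alone left most of the 10 genes inside the limit. The exercise comparison in healthy mice put 3 of 10 genes past it, where 9.98% of filtered genes were past it, 5.28% higher and 4.7% lower. Timp1 was 2.20-fold higher in healthy running lung (log2 1.14, exact interval 0.47 to 1.90), on 54 against 26 reads. It came inside the limit, at 0.63, when 1.47% of the tumor resting lung level was taken out of healthy running lung, and its level in healthy running lung was 4.86% of that in tumor resting lung. Mmp13 was lower by 1.48 on the log2 scale (-3.76 to -0.02), on 4 against 14 reads. Mmp10 had 6 reads in healthy resting lung and 0 in healthy running lung, which is at least 1.85-fold lower against the floor of 3 reads, while the exact interval reaches up to -0.12 on the log2 scale, and with that value 2 of the 10 genes were past the limit.

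The other genes differed less. Mmp9 was higher by 0.88 (0.63 to 1.15) and Mmp3 by 0.42 (0.03 to 0.81). Mmp2 was lower by 0.61 (-0.82 to -0.41) and Timp3 by 0.29 (-0.32 to -0.26). For Mmp14, at -0.01 (-0.24 to 0.23), and Mmp12 (-1.25 to 0.25), the interval included 0. Timp2 stood at 0.07 (0.03 to 0.10). The median of the 10 genes was -0.15, against 0.00 over all filtered genes. Of the neutrophil markers 8 of 11 were higher in healthy running lung, with a median of 1.61, and their part in the Mmp9 value was not tested. Of the cell division genes 4 of 12 were higher, with a median of 0.78 that came to 0.42 after the subtraction, and 1 of 12 macrophage markers was higher. Their part in the Timp1 value was not tested. No endothelial, fibroblast, alveolar epithelial or alveolar macrophage marker was past the limit in this comparison.

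Against untreated resting lung, tumor running lung had 4 of 10 genes past the limit, all higher, where 29.2% of filtered genes were past it and 14.8% were higher. Timp1 was 18.7-fold higher (log2 4.22, exact interval 3.70 to 4.91), Mmp9 15.1-fold (3.92, 3.71 to 4.14), Mmp10 3.48-fold (1.80, 0.55 to 3.59) and Mmp14 2.15-fold (1.11, 0.90 to 1.32). Mmp14 was inside the limit under library totals, at 0.61, and under totals without hemoglobin genes, at 0.93. Mmp13 was lower past the limit under the same scalings, at -1.34 and -1.07. Mmp2 (0.39) and Timp3 (0.40) changed sign under library totals, both to -0.10, and so did Mmp12 (0.23, with an interval of -0.46 to 0.92), to -0.26. Mmp3 was at 0.88, Timp2 at -0.40 and Mmp13 at -0.90 on the deposited scale, the last with an interval that included 0. All 11 neutrophil markers (median 5.22), all 12 cell division genes (median 3.10), 8 of 12 macrophage markers (median 1.78) and all 6 hemoglobin rows (median 1.74) were higher past the limit here. Lower past it were 3 of 9 endothelial (median -0.76), 4 of 13 fibroblast (median -0.69, with 2 higher), 3 of 10 alveolar macrophage (median -0.20, with 1 higher) and 1 of 11 alveolar epithelial markers (median -0.34). Their part in these values was not tested.

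**Figure D4:**
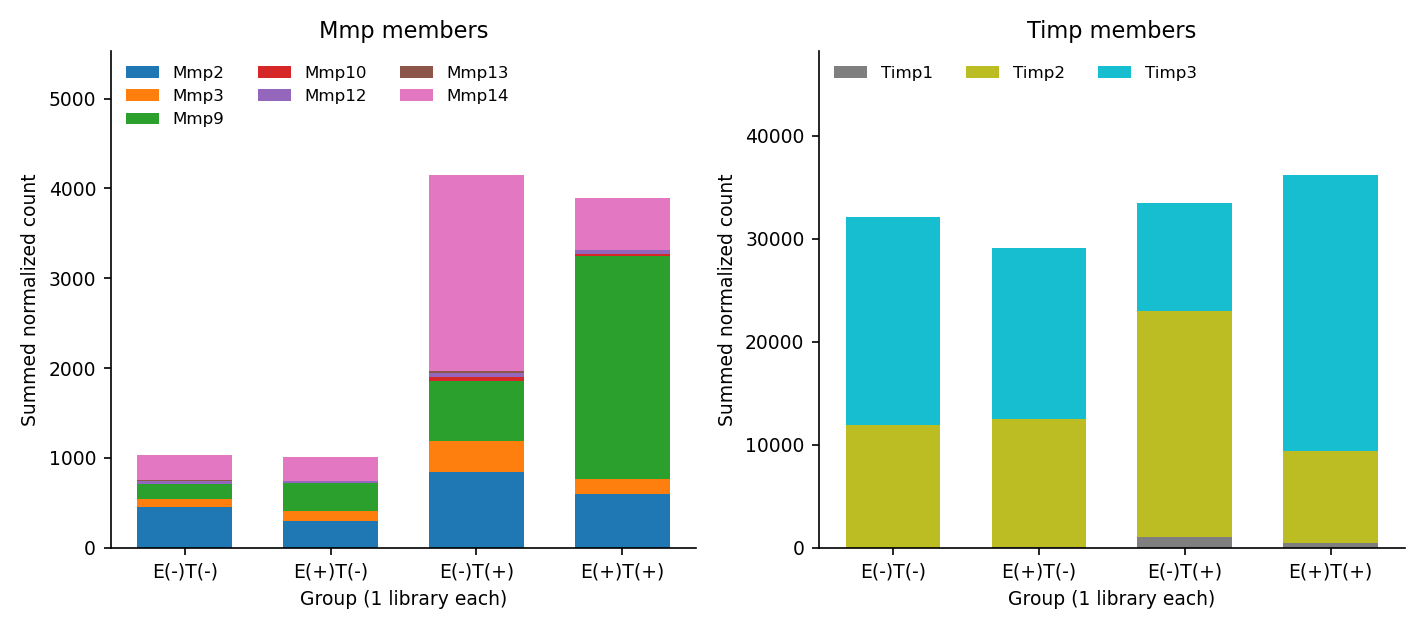
Summed normalized counts of the 7 Mmp genes (left) and the 3 Timp genes (right), stacked by gene, for the library of each group. The Mmp sum was 1029 and 1013 in the tumor-free libraries and 4149 and 3897 in the tumor libraries, while the Timp sum stayed between 29074 and 36197.

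The balance of enzyme and inhibitor transcripts was described by their sums. The summed normalized count of the 7 enzymes was 1029, 1013, 4149 and 3897 in healthy resting, healthy running, tumor resting and tumor running lung. That of the 3 inhibitors was 32159, 29074, 33442 and 36197 in the same order. The enzyme sum was therefore higher in both tumor libraries, while the inhibitor sum stayed within 29074 to 36197. The ratio of the sums was 0.0320, 0.0348, 0.124 and 0.108. Over all Mmp rows and Timp1 to Timp4 it was 0.0781, 0.0851, 0.191 and 0.365, so that the order of the tumor libraries turned.

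Enzymes made up 3.10% of the reads of the 10 genes in healthy resting lung (95% Wilson interval 2.93 to 3.28) and 3.37% in healthy running lung (3.18 to 3.57). They made up 11% in tumor resting lung (10.7 to 11.4) and 9.72% in tumor running lung (9.41 to 10.0). These intervals too cover counting error alone, not the spread between animals. Mmp2 was the leading enzyme in healthy resting lung with 44.6% of the enzyme sum, Mmp14 in tumor resting lung with 52.5% and Mmp9 in tumor running lung with 63.9%. In healthy running lung Mmp9 (29.9%) and Mmp2 (29.6%) were close to each other.

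Among the inhibitors, Timp3 held 63.0%, 57.1%, 31.1% and 74.0% of the sum in healthy resting, healthy running, tumor resting and tumor running lung, and Timp2 held 36.9%, 42.7%, 65.9% and 24.8%. Timp1 held 0.0683%, 0.170%, 3.05% and 1.18%. Mmp9 exceeded Timp1 by 7.46, 6.12 and 5.82 times in healthy resting lung, healthy running lung and tumor running lung. In tumor resting lung the order was the reverse, at a ratio of 0.650.

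The remaining Mmp genes were read in the same way. Of 16 other Mmp symbols, all were in the files and 9 passed the filter. In the tumor effect without exercise 4 of the 9 were higher and 4 lower (median -0.54), with Mmp25 among the higher on 2 against 0 reads. In the exercise effect with tumor 5 were higher and 2 lower (median 1.5, or 0.96 with a pseudocount of 4). Mmp25, among the 5, passed the filter only through tumor running lung, where it was highest. Mmp16 (7 against 2 reads) and Mmp17 (10 against 1), also among the 5, rested on few reads. Mmp8, the neutrophil collagenase and a neighbor of Mmp10 on chromosome 9, had 64, 208, 409 and 6982 reads in healthy resting, healthy running, tumor resting and tumor running lung. Its tumor effect without exercise was 3.02 (2.66 to 3.45) and its exercise effect with tumor 4.18 (4.04 to 4.33). Mmp25, another enzyme of leukocytes, had 0, 2, 2 and 41 reads and an exercise effect with tumor of 3.89 (2.51 to 7.54).

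Mmp19 (270, 191, 994 and 425 reads) was highest in tumor resting lung, as Mmp14 was, with a tumor effect without exercise of 2.24 (2.05 to 2.45) and an exercise effect with tumor of -1.13 (-1.30 to -0.97). Mmp11, an enzyme of stromal fibroblasts, had 238, 228, 371 and 95 reads and was lower by 1.86 in the exercise effect with tumor (-2.21 to -1.54). Mmp15, a membrane-anchored relative of Mmp14, had 613, 497, 31 and 180 reads and a tumor effect without exercise of -3.90 (-4.51 to -3.42), opposite in direction to Mmp14. Mmp17 had 10, 21, 1 and 10 reads and a tumor effect of -2.13 (-8.39 to -0.14). With exercise and tumor together, 3 of the 9 were higher and 1 lower than in untreated lung (median -0.51).

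**Figure D5:**
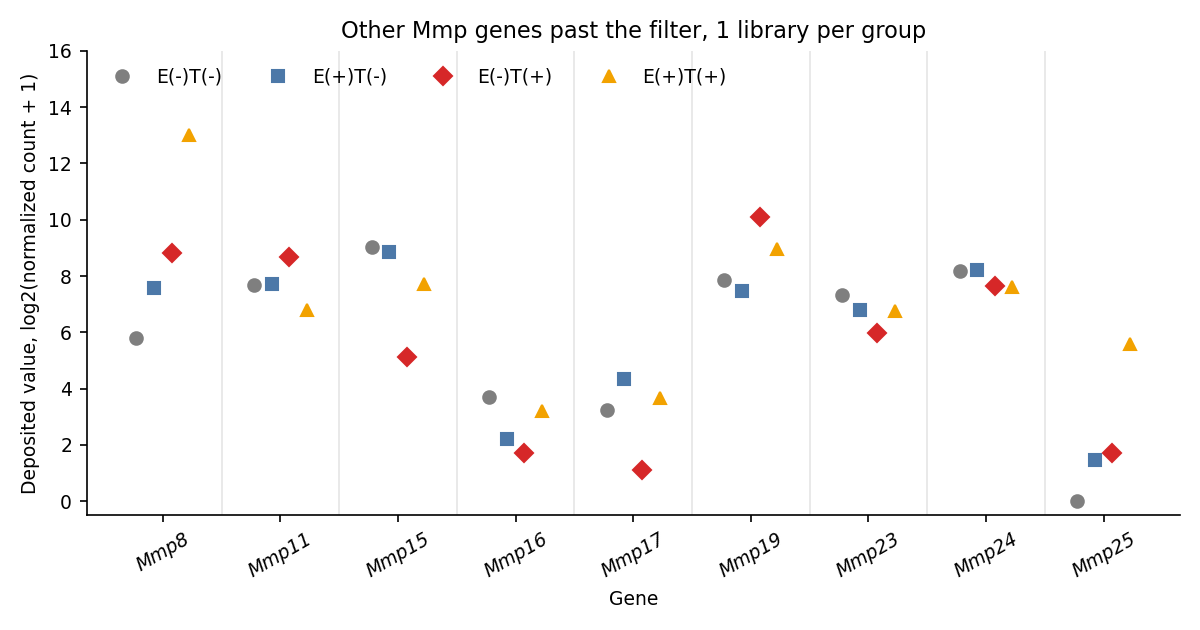
Deposited log2(normalized count + 1) of the 9 other Mmp genes past the filter, with 1 point per library and group. Mmp8 and Mmp25 are highest in E(+)T(+), Mmp19 and Mmp11 in E(-)T(+), and Mmp15 is lowest in E(-)T(+).

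Further inhibitors were scarce. Of Timp4, Reck, Tfpi2, A2m and Pzp, 4 passed the filter. Timp4 had 53, 29, 24 and 55 reads in healthy resting, healthy running, tumor resting and tumor running lung, with an exercise effect with tumor of 1.25 (0.57 to 2.05). Reck, a membrane-bound inhibitor of several Mmp proteins, had 24, 21, 4 and 12 reads and a tumor effect without exercise of -1.98 (-4.21 to -0.68). The other inhibitors had at most 9 reads per library. In the tumor effect without exercise 1 of the 4 was higher and 2 were lower, and in the exercise effect with tumor 2 were higher and 2 lower.

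Transcription factors known to act on Mmp promoters were followed as a list of 15 genes, all past the filter. In the tumor effect without exercise 5 were higher and 3 lower (median 0.32). Fosl1, a partner of Jun in AP-1, had 2, 26, 1020 and 165 reads in healthy resting, healthy running, tumor resting and tumor running lung, and Etv4, a PEA3 factor, had 0, 12, 681 and 87. The tumor effect without exercise was 8.75 for Fosl1 (7.50 to 12.41), and Etv4 was at least 293-fold higher against the floor of 3 reads, while its exact interval reaches down to 7.89 on the log2 scale. For Fosl1 and Etv4 both libraries with tumor were above both without. Their part in the Mmp and Timp values was not tested. The exercise effect with tumor was -2.53 for Fosl1 (-2.78 to -2.30) and -2.86 for Etv4 (-3.21 to -2.55).

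Ets2 and Etv5, also of the ETS family, were lower in the tumor effect without exercise, by 1.28 (-1.41 to -1.16) and 1.6 (-1.74 to -1.46). Ets2 (2.96) and the AP-1 subunit Junb (2.28) were the highest of the list in the exercise effect with tumor. In it 6 were higher and 3 lower (median 0.47, or -0.14 under library totals). With exercise the tumor effect placed 9 of the 15 past the limit, all higher (median 1.46).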

How the data were processed

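Lung RNA of the 4 groups was sequenced by the authors with QuantSeq, a 3' end library kit, in 1 library per group. Per the labels and the methods, the authors aligned reads with Bowtie2 to mm10, counted them per gene with bedtools coverage and normalized them by the quantile method of edgeR. Tool versions, the annotation and the use of strand are not given in the sources used here. The deposited values are log2(normalized count + 1) at 3 decimals.

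Whole reads were recovered by inverting the quantile adjustment in R 4.3.3 (fitted dispersion 0.372), which returned 100% of the deposited values within 0.001 and 99.47% to 3 decimals, and the method was tested on simulated data. Rounding leaves each value uncertain by 0.035%, which is 791 reads for the highest hemoglobin row and 8 reads for the highest of the 10 genes, and the totals carry this too. Reads totalled 13017345, 12780343, 9354577 and 13368071 in healthy resting, healthy running, tumor resting and tumor running lung. Comparisons are differences of the deposited log2 values, with a limit of 2-fold and a filter that keeps genes with a normalized count of 4 or more on average. Exact (Clopper-Pearson) intervals were scaled by effective library sizes. They cover counting error of reads alone and may be too narrow even for that, since PCR copies are not independent molecules. The floor was 3 reads per library.

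All 10 genes are named. From each other list at most 2 rises and 2 falls were named in the tumor effect without exercise and in the exercise effect with tumor. Named beyond this, after their values were seen, were S100a9, Hpse and Adamts16. So were Mmp25, Klkb1 and Elane in the tumor effect without exercise, and Mmp16 and Mmp17 in the exercise effect with tumor. The genes and lists were chosen with earlier results of these data known. Of 12 neutrophil symbols, Ly6g was not matched. Alternatives were library totals, totals without hemoglobin genes, median-of-ratios size factors, a pseudocount of 4, other filters and the subtraction described in the text. Python 3.11.15, scipy 1.17.1 and matplotlib 3.10.9 were used.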

Additional observations from a re-analysis of the deposited data

Results flagged for a closer look

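For 4 of the 10 genes an effect had opposite signs without and with tumor, or at rest and with exercise, with counting intervals that left out 0 on both sides, as it had for 24.5% of filtered genes (17% for the exercise effect and 13% for the tumor effect). These intervals cover counting error alone and are narrow for abundant genes such as Timp2. The difference was not tested, as each group had 1 library. The exercise effect without and with tumor was 1.14 and -1.25 for Timp1, 0.42 and -1.13 for Mmp3, -0.29 and 1.37 for Timp3, and 0.07 and -1.30 for Timp2. The Timp2 value without tumor turned to -0.02 under library totals, with or without hemoglobin genes. The Timp1 rise without tumor was 0.63 when healthy running lung was reduced by 1.47% of the tumor resting level. The tumor effect without and with exercise was 0.89 and -0.47 for Timp2, and -0.96 and 0.69 for Timp3.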

How the results depend on the processing

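No paired analysis was possible because each group had 1 library and the labels carry no replicate numbers. Of 220 values of single genes recomputed under another scaling, another pseudocount or the subtraction, 181 stayed inside the counting interval of the deposited value, and no value past 2-fold changed sign. Library totals alone moved 24 of 50 values out of it. The number of the 10 genes past 2-fold in the tumor effect with exercise went from 5 to 3 under library totals and to 4 without hemoglobin genes. In the exercise effect without tumor it went from 3 to 1 when genes needed an average normalized count of 100, a filter that leaves out Mmp10 and Mmp13.

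The ratio of summed Mmp to summed Timp counts depends on the genes summed. Over all Mmp rows and Timp1 to Timp4 it was 0.0781, 0.0851, 0.191 and 0.365 in healthy resting, healthy running, tumor resting and tumor running lung, with the last the highest. Without Mmp9 and Timp3, the enzyme and inhibitor with the highest mean normalized count over the 4 libraries, it was 0.0727, 0.0569, 0.151 and 0.15. Depth limits Mmp10, Mmp12 and Mmp13, with at most 50 reads per library, and 3 reads correspond to 2.55 to 3.51 normalized counts.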

Other observations

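Other enzymes that act on the matrix also differed between the libraries. Of 17 other enzymes of the matrix, all proteases but Hpse, which cuts heparan sulfate, 10 were higher and 0 lower in the tumor effect without exercise (median 1.11), among them Adam12, a membrane-anchored protease, at 6.73 on 333 against 3 reads (5.6 to 9.45). Ctsg, a protease of neutrophil granules, had 24 against 0 reads and was at least 10.3-fold higher against the floor of 3 reads, with an exact interval that reaches down to 2.96 on the log2 scale. Hpse was among the 10, and so was Elane, on 1 against 0 reads. Elane passed the filter only through tumor running lung. In the exercise effect with tumor 3 were higher, among them the neutrophil proteases Elane (4.79, on 51 against 1 read, 3.22 to 11.10) and Prtn3 (2.44), and 4 were lower, among them Hpse, Adam12 (-3.25) and the lysosomal protease Ctsl (-2.73). Of 17 Adamts genes past the filter, 6 were higher and 5 lower in the tumor effect without exercise (median 0.15), with Adamts7 at 5.34 on 64 against 1 read (3.84 to 11.69) and Adamts8 at -3.35. Adamts16 was among the 6 on 19 against 0 reads, and it passed the filter only through tumor resting lung. Exercise with tumor had 5 higher and 5 lower (median 0.40, or -0.19 under library totals), with Adamts8 at 3.58 and Adamts7 at -2.47. Adamts16 was among the 5 lower, on 0 against 19 reads.

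Of 8 genes of the plasminogen system, which can activate Mmp proenzymes, 4 were higher and 1 lower in the tumor effect without exercise (median 0.81). Of the higher genes Plg had 6 against 0 reads, Serpinb2 16 against 0 and Klkb1 10 against 1, so that these calls rest on few reads. Serpine2, an inhibitor of serine proteases, was at -1.55 (-1.75 to -1.36) without exercise and at 1.92 (1.73 to 2.12) in the exercise effect with tumor. In the latter 4 were higher and 1 lower (median 0.93, or 0.35 under library totals). Of 17 matrix proteins that Mmp enzymes cut or that stand in the same matrix, 7 were higher and 2 lower in the tumor effect without exercise (median 0.60). Spp1, a matrix phosphoprotein, was at 4.44 and Col1a2 at 2.78, and the laminin chains Lamb3 and Lama3 at -2.58 and -1.97. In the exercise effect with tumor 5 were higher, with Thbs1 at 2.50 and Vcan at 1.74, and 3 were lower, with Spp1 at -3.40 and Col1a2 at -2.39. The median was 0.08, or -0.53 under library totals. The 6 hemoglobin rows past the filter had medians of -3.42 and 5.14 in these comparisons.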
